A study of Mus musculus with 22 samples.

Results

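The genes described here carry only a serial name, Gm followed by digits, which mouse annotation gives to predicted genes that have no better name yet. They were chosen by that name alone, and 270 of the 12596 genes in the deposited table matched it (2.14%). The study concerns the locus coeruleus, the main noradrenergic nucleus of the brainstem, and RNA was sequenced from 11 mice on a C57Bl/6 background. All 11 carried a Th-cre transgene, in which the promoter of the tyrosine hydroxylase gene drives Cre, and Slc6a2-eGFP/Rpl10a, in which the noradrenaline transporter gene drives a green fluorescent ribosomal protein. The tag lets ribosomes of noradrenergic cells be immunoprecipitated with the RNA on them. The treatment label was hTyr (human tyrosinase) for 5 of the mice and EYFP, a fluorescent protein used as control, for the other 6. The labels do not say in what form either was delivered. Each mouse gave 1 immunoprecipitated library (IP) labelled noradrenergic and 1 input library labelled total hindbrain, taken before the immunoprecipitation, so the groups were hTyr IP and hTyr input (n = 5 each) and EYFP IP and EYFP input (n = 6 each). Libraries are named as labelled, the shared number of IP_501 and Pre_501 being read as that of 1 animal. The age of the mice, the time after infusion and any pooling are not given in the sources used here.

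Genes with Gm names are a mixed class. Some are long noncoding RNAs, which make no protein and are often kept in the nucleus. Many are processed pseudogenes, copies of a spliced messenger RNA written back into the genome, whose sequence stays close to that of the parent gene. Others are predicted protein-coding genes, frequently recent duplicates that sit in clusters, such as the zinc finger families. An immunoprecipitation of tagged ribosomes favours RNA that is bound to ribosomes and that is present in the tagged cells.

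By the RefSeq table for GRCm38.p6, 217 of the 270 names are current symbols and 28 are older names of a gene that has since been renamed, while 25 have no entry. The entries make 78 long noncoding RNAs, 73 predicted protein-coding genes, 93 pseudogenes and 1 gene of another type. Another gene of the table overlapped 66 of the 270 in position. Near copies could be searched only for the 183 found by name in the GENCODE M21 annotation. Of these, 116 had one among the table's other genes (at least 90% identity over at least 50% of the transcript, same build). Genes that overlap in position were not left out of that search. Levels of the 270, in log2 counts per 1000000 reads (log2 CPM, not corrected for length), were low: the median of their mean over all libraries was 3.24 against 5.01 for all genes, and 215 lay below the latter. Together they took 0.964% to 1.17% of a library's reads. On the X chromosome there were 9, and none of the matched ones was on the Y.

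The libraries held 12654489 to 25100142 reads in the table's genes. The 9 noradrenergic marker genes all passed the test as higher in IP in both treatments. Their mean level lay between 5.38 and 7.33 log2 CPM in IP libraries and between 3.18 and 3.57 in input. Other cells were still present: the mean of 7 oligodendrocyte markers was 9.06 to 9.52 in IP and 9.18 to 9.60 in input, and that of 6 astrocyte markers 7.35 to 8.02 in IP and 7.22 to 7.57 in input. Markers of some other cells were higher in IP too: 2 of 2 cholinergic (medians 0.91 in EYFP and 1.07 in hTyr animals), 3 and 4 of 6 astrocyte, 4 and 3 of 6 glutamatergic and GABAergic and 2 of 3 serotonergic genes in each treatment (the third was lower in EYFP animals). Their part in the rises of about 1 given below was not tested. In bulk RNA, fewer cells of a type and less RNA per cell cannot be told apart. Of the Y-linked genes, which mark male tissue, 4 were in the table, and each treatment had animals in which all 4 were at 0 reads.

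Against input, more Gm-numbered genes were lower in IP than higher, in both treatments. In EYFP animals 31 rose and 105 fell at an adjusted p under 0.05 (limma, Benjamini-Hochberg over all genes), where 28.5% of all 12596 genes rose and 28.1% fell. The p-values set the change against the spread between libraries within a group, without the pairing of IP and input by animal. Counts with the pairing included are given at the end. In hTyr animals 38 rose and 98 fell, against 27.4% and 27.0% of all genes. Their median log2 change was -0.24 in both treatments, beside -0.03 in EYFP and -0.04 in hTyr animals over all genes. Among the upper 75% of genes by mean level, which hold 100 of the 270, 16 rose and 27 fell in EYFP and 18 and 19 in hTyr animals, with medians of -0.05 and -0.03. Over all 9447 genes of that fit 2963 rose and 2784 fell in EYFP animals, and 2859 and 2704 in hTyr animals. The share of Gm-numbered genes that fell was thus not above that of all genes there. Most of the falls were of genes with lower levels, as were most of the 270. The treatments share no libraries here. Of the 270, 25 rose in both, which is 80.6% of the EYFP rises and 65.8% of the hTyr rises. A further 82 fell in both, 78.1% of the EYFP falls and 83.7% of the hTyr falls, and 0 passed in opposite directions. Across the 270 genes the changes in EYFP and hTyr animals had a Pearson r of 0.96 (a description, since genes are not independent replicates).

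Long noncoding RNAs made up much of the fall. Among the 78 long noncoding RNAs 1 rose and 55 fell in EYFP animals, and 3 rose and 54 fell in hTyr animals, with medians of -0.53 and -0.60. Of these, 47 fell in both. The 199 other long noncoding RNAs of the table did likewise: 5 rose and 128 fell in EYFP animals (median -0.45), 7 and 120 in hTyr animals (median -0.55). The 93 pseudogenes had medians of -0.03 in both treatments, with 15 rises and 17 falls in EYFP and 12 and 17 in hTyr animals. The 46 other pseudogenes differed from these: 4 rose and 24 fell in EYFP animals (median -0.39), and 5 and 24 in hTyr animals (median -0.44). The gap between both sets was not tested. The 73 predicted protein-coding genes lay between, with medians of -0.18 and -0.12, 11 rises and 24 falls in EYFP and 16 and 18 in hTyr animals. The mean level of the 78 long noncoding RNAs was 2.41 to 2.90 log2 CPM in the EYFP IP libraries and 3.07 to 3.18 in EYFP input. In hTyr animals it was 2.43 to 2.75 in IP and 3.01 to 3.18 in input. The IP libraries lay below the input libraries in both treatments with no overlap. For the pseudogenes the same ranges overlapped, 4.52 to 4.68 in EYFP IP and 4.51 to 4.77 in EYFP input.

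**Figure D1:**
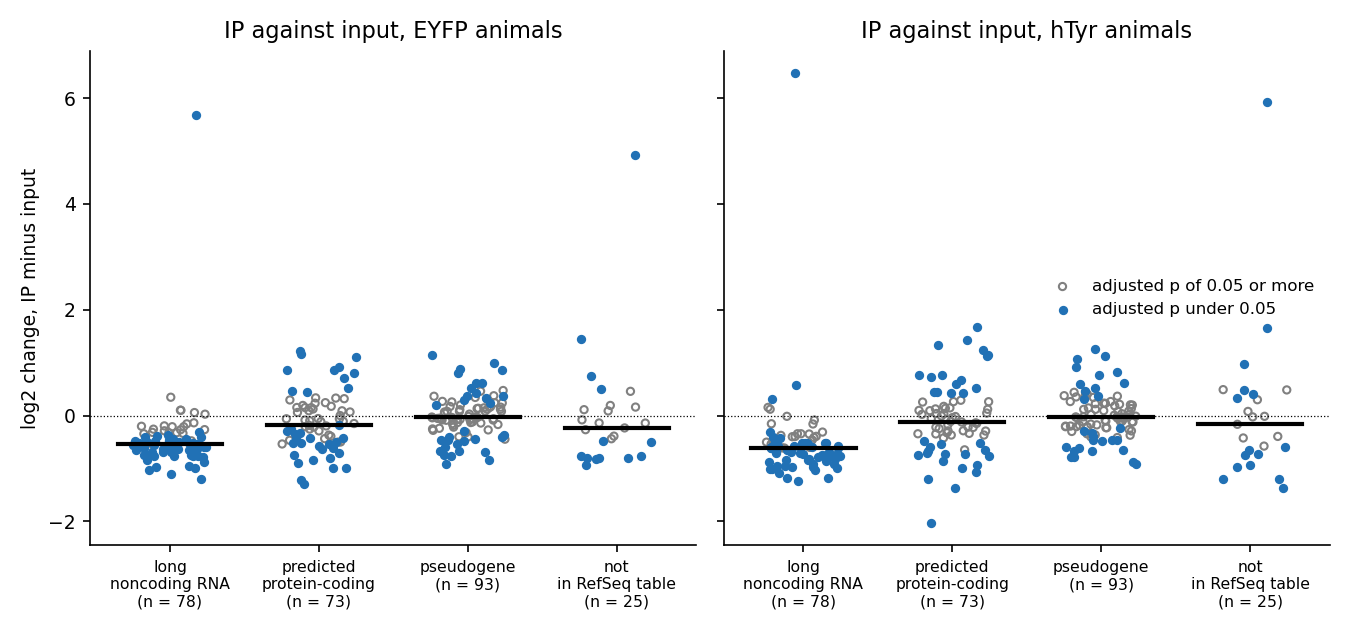
Log2 change between IP and input (vertical axis) of each Gm-numbered gene by its class in the RefSeq table, in EYFP animals (left) and hTyr animals (right); filled points have an adjusted p under 0.05 and black bars are class medians, and the 1 gene of another type is not drawn. The bar of the 78 long noncoding RNAs lies at -0.53 and -0.60, those of the 93 pseudogenes at -0.03, and a single point of each of 2 classes stands far above the rest.

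Those single points were Gm39813 and Gm40600, which had the largest and the next largest log2 change of all 12596 genes in both treatments, above Dbh, the enzyme that turns dopamine into noradrenaline. Both had been picked out in earlier work on these data. Gm39813 is a long noncoding RNA at chr2:57223317-57224824 (GRCm38.p6), and its nearest named gene, Gpd2, the mitochondrial glycerol-3-phosphate dehydrogenase, lies 12854 bases away. In EYFP IP its level was 1.98 at the lowest, 2.99 at the median and 4.40 log2 CPM at the highest. In EYFP input the same values were -3.21, -2.95 and -1.73, where -3.21 stands for 0 reads. In hTyr IP it was 5.07, 4.21, 2.57, 3.43 and 3.53 in IP_501, IP_502, IP_508, IP_509 and IP_510. In hTyr input it was -1.25 in Pre_501, -2.65 in Pre_502 and -3.21 in the other 3. Every IP library thus stood above every input library. In reads, EYFP IP held 981 and EYFP input 8, a ratio of 134 after scaling for library size (exact 95% interval 67.9 to 312, counting error only). hTyr IP held 1281 and hTyr input 9, a ratio of 195 (interval 103 to 429), and 8 of those 9 input reads came from Pre_501. The fitted log2 changes were 5.68 (SE 0.43, adjusted p = 3.08e-07) in EYFP and 6.47 (SE 0.54, adjusted p = 7.45e-08) in hTyr animals by limma. These depend on the 2 reads that the deposited values add on average, since 6 of 11 input libraries had 0 reads. Gpd2 also rose, by 0.39 (SE 0.10) in EYFP and 0.63 (SE 0.12) in hTyr animals.

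Gm40600, which has no RefSeq entry, behaved alike. Its level was 2.45, 2.89 and 4.35 log2 CPM (lowest, median, highest) in EYFP IP and -2.29, -1.83 and -1.21 in EYFP input. In hTyr IP it was 5.23, 4.13, 3.0, 2.70 and 3.33 in IP_501, IP_502, IP_508, IP_509 and IP_510. In hTyr input it was -2.43, -1.09, -1.27, -3.21 and -3.21 in the same order of animals. The groups did not overlap in either treatment. Its reads were 1011 in EYFP IP and 22 in EYFP input, a ratio of 50.4 (interval 33.1 to 80.7). They were 1275 in hTyr IP and 15 in hTyr input, a ratio of 117 (interval 70.5 to 209). The log2 changes were 4.93 (SE 0.33, adjusted p = 1.73e-07) and 5.92 (SE 0.56, adjusted p = 2.65e-07) by limma. Dbh for comparison rose by 4.02 (SE 0.20) and 4.30 (SE 0.22).

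Gm42102, also with no RefSeq entry, rose less. It stood at 1.62, 2.07 and 3.36 log2 CPM (lowest, median, highest) in EYFP IP and at 0.38, 0.85 and 1.04 in EYFP input. In hTyr IP it was 4.22, 2.86, 1.33, 2.37 and 2.75, and in hTyr input 0.90, 1.23, 0.88, 1.15 and 1.06, in the same order of animals. IP and input did not overlap in either treatment, although IP_508 at 1.33 came close to Pre_502 at 1.23. It rose by 1.45 (SE 0.26, adjusted p = 0.000195) in EYFP and by 1.66 (SE 0.38, adjusted p = 0.00143) in hTyr animals by limma.

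**Figure D2:**
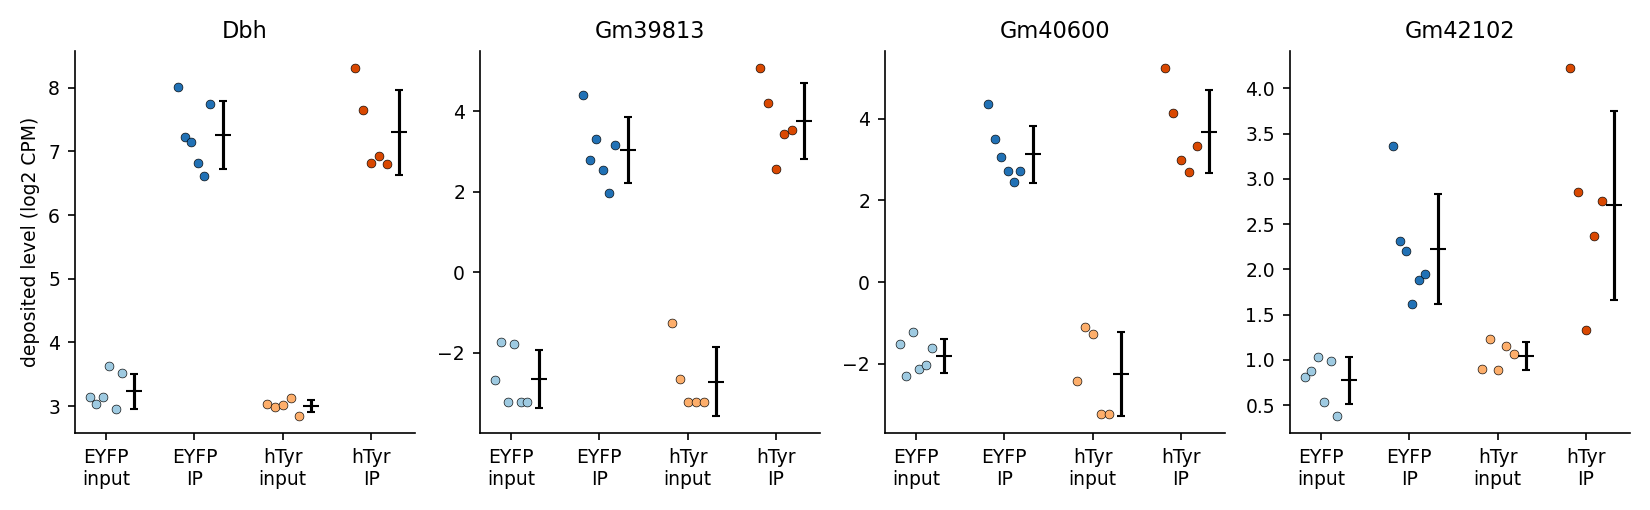
Deposited level (log2 CPM, vertical axis) of Dbh, Gm39813, Gm40600 and Gm42102 in each library of the 4 groups, 1 point per animal, with the mean and SD beside each group. Every IP point of Gm39813 lies at 1.98 or above and every input point at -1.25 or below, and Gm42102 shows the smallest gap of the genes drawn.

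The start of Gm39813 is shown beside that of Dbh because both rose together in IP. Capitals mark TAAT or its reverse complement ATTA, the core recognised by homeodomain proteins, a large family of transcription factors. Each stretch runs from 250 bases before to 50 bases after the RefSeq start site, on the plus strand of GRCm38.p6, chr2:57223067-57223366 for Gm39813 and chr2:27165257-27165556 for Dbh.
Gm39813: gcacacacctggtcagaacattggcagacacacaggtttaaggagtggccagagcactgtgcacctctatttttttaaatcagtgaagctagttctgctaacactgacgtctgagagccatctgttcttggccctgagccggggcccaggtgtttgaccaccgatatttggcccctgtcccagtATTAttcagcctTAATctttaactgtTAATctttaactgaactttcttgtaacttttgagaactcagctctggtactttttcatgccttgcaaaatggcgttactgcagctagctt
Dbh: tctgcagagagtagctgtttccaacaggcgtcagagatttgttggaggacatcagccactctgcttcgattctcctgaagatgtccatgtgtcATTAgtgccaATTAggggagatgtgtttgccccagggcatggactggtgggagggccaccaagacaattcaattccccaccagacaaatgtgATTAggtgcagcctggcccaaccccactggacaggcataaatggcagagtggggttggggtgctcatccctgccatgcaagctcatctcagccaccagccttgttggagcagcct
Each held 3 such matches. Among all 32851 listed promoters of this length 58.0% held at least 1 match and 6584 held at least 3. Neither held the longer TAATTA, which contains both and is its own reverse complement, found in 5.29% of all promoters. These are matches of letters in a window and show no binding. The promoter table listed 110 of the 270 genes by their Gm name.

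Counting Gm39813, Gm40600 and Gm42102, 8 Gm-numbered genes rose by at least 1 on the log2 scale in EYFP animals, where 3.06% of all genes did, and 12 in hTyr animals, where 5.43% did. The others named for their rise were predicted protein-coding genes and pseudogenes. Gm4944, since renamed the zinc finger gene Zfp994, and Gm7072 lie near each other on chromosome 17, at chr17:22197265-22225659 and chr17:22285871-22319979. Gm7072 rose by 1.16 (SE 0.20) in EYFP and 1.67 (SE 0.25) in hTyr animals. Its hTyr IP levels of 2.92, 2.40, 3.59, 3.47 and 3.19 log2 CPM all stood above the hTyr input levels of 1.36, 1.41, 1.57, 1.90 and 0.99. In EYFP animals IP (2.26, 3.10 and 3.44 at the lowest, median and highest) and input (1.31, 1.89 and 2.35) overlapped slightly. Gm4944 rose by 1.21 (SE 0.23) and 1.42 (SE 0.26). Its level in IP_505, 1.55, lay apart from the other 5, which were at 2.74 or above in EYFP IP. Gm10509 (chr17:21679877-21692542) rose by 1.10 (SE 0.19) and 1.13 (SE 0.21) with no overlap in either treatment. The more abundant Gm38481 (chr2:53694340-53696857) was at 6.38 to 7.02 log2 CPM in EYFP IP and 5.75 to 6.10 in EYFP input. It rose by 0.87 (SE 0.10) and 1.14 (SE 0.11), again with no overlap. Gm40814 (chr11:8920852-8929275) rose by 1.33 (SE 0.25) in hTyr animals and, with overlapping groups, by 0.72 (SE 0.26) in EYFP animals. Gm10778 (chr10:81649069-81667361) rose by 1.24 (SE 0.21) and 0.91 (SE 0.22) in the same order. Gm3650, which has Spg11 as a near copy, rose by 0.86 (SE 0.16) in EYFP and 0.78 (SE 0.16) in hTyr animals.

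Among the pseudogenes named for their rise, the following had parent genes that rose too. Gm6644 lies at chr1:55443695-55445063 within Plcl1, which rose too, by 0.97 in EYFP and 1.01 in hTyr animals. It is a copy of Akr1b3, the aldose reductase that reduces glucose to sorbitol. Its level was 5.55, 6.00 and 6.24 log2 CPM (lowest, median, highest) in EYFP IP and 4.66, 4.91 and 5.07 in EYFP input, with no overlap. It rose by 1.00 (SE 0.11) in EYFP and 1.25 (SE 0.13) in hTyr animals, and Akr1b3 by 1.06 (SE 0.10) and 1.27 (SE 0.13). Gm5424 (chr10:62071022-62072571), a copy of the urea cycle enzyme gene Ass1, rose by 0.88 (SE 0.11) and 0.92 (SE 0.14), and Ass1 by 0.99 (SE 0.13) and 1.02 (SE 0.13). Gm6793 (chr8:112013433-112015036) is a copy of Hnrnpa3, which encodes an RNA-binding protein. It rose by 0.86 (SE 0.11) and 1.07 (SE 0.15), and Hnrnpa3 by 0.83 (SE 0.09) and 1.04 (SE 0.12). Gm6158 (chr14:24069268-24070880), a copy of Cnot1, the scaffold of the CCR4-NOT complex that shortens poly(A) tails, rose further than its parent: 1.15 (SE 0.11) and 1.13 (SE 0.14) against 0.77 (SE 0.09) and 0.68 (SE 0.10). That gap was not tested.

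For 87 Gm-numbered genes the closest copy is a gene with another kind of name, and the transcripts match in the same direction. Over these 87 the change of the gene and of its copy went together. The 87 have 76 different copies, with a median identity of 99.4%. Pearson's r across the pairs was 0.70 in EYFP and 0.77 in hTyr animals, and 67 and 71 of the 87 pairs had the same sign. These are descriptions, because both genes of a pair come from the same libraries and reads can be shared between near-identical sequences. Pairs that overlap in position were not left out. The Gm-numbered gene held a median of 33.6% of its copy's reads (0.401% to 561%). How reads that match several places were counted is not given in the sources used here, so the level of such a gene is uncertain. Of the 32 that passed in EYFP animals, 20 had a copy that passed in the same direction and 2 a copy that passed in the opposite direction. In hTyr animals these counts were 28, 20 and 1.

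**Figure D3:**
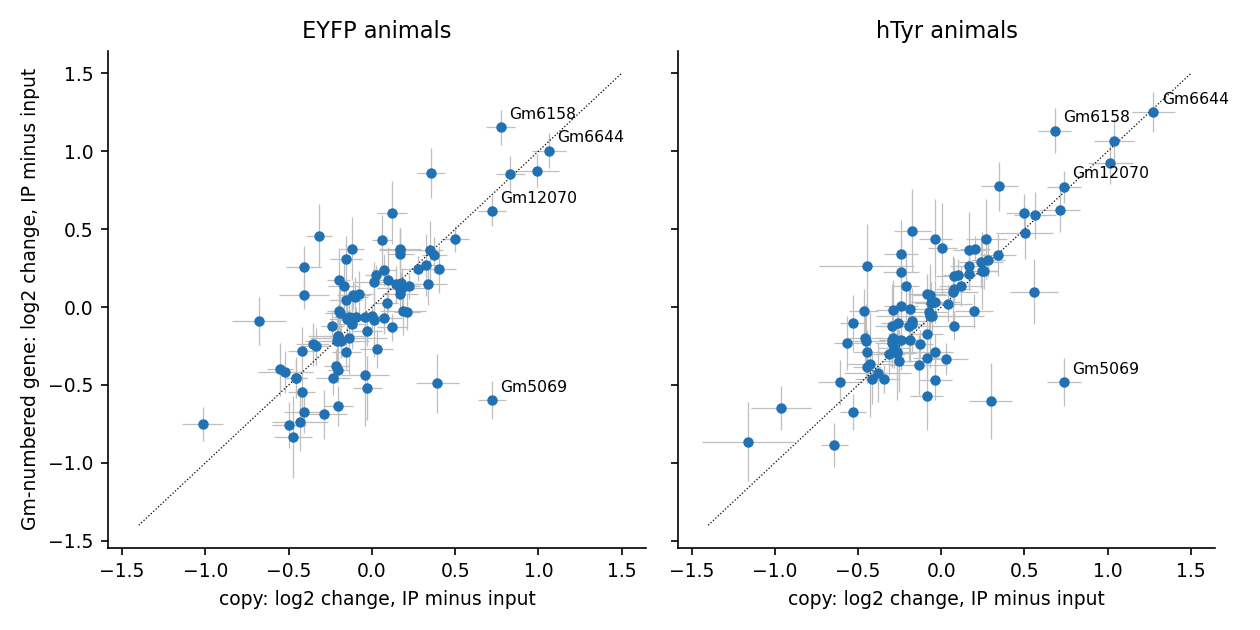
Log2 change between IP and input of the copy (horizontal axis) and of the Gm-numbered gene (vertical axis) for the 87 pairs, in EYFP animals (left) and hTyr animals (right); bars are standard errors and the dotted line marks equal change. Most pairs lie near the line, with r of 0.70 and 0.77, while Gm5069 lies below 0 where its copy Gapdh is at 0.72 and 0.74.

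The copies of Gapdh, a glycolytic enzyme gene, differed from each other. Gm12070, with 99.9% identity over its length, rose with Gapdh by 0.62 (SE 0.10) and 0.77 (SE 0.10). Gapdh itself rose by 0.72 (SE 0.08) and 0.74 (SE 0.10). Gm5069, with 93.3% identity, fell by 0.60 (SE 0.12) and 0.48 (SE 0.16). In EYFP animals Gm12070 stood at 9.49 to 10.05 log2 CPM in IP and 8.89 to 9.24 in input, whereas Gm5069 was at 2.95 to 3.5 in IP and 3.60 to 4.01 in input. In EYFP animals IP and input did not overlap for either gene, in opposite orders, while in hTyr animals those of Gm5069 overlapped. By reads Gm12070 equalled 77.9% of Gapdh and Gm5069 1.26%. Stretches of the 3 transcripts, and of Akr1b3 and Gm6644, show how much sequence tells each copy apart, with the bases that differ from the parent in capitals. They are 150 bases of GENCODE M21 transcripts on the transcript's strand, chosen inside the parent's coding sequence where the copy differs most. For Gapdh the window is where Gm12070 differs most, with Gm5069 deciding only between ties. Windows with dense differences were left out. The stretches lie at chr11:26786869-26787018 (plus) for Gm12070, chr1:180327787-180327936 (minus) for Gm5069 and chr1:55444395-55444544 (minus) for Gm6644.
Gapdh: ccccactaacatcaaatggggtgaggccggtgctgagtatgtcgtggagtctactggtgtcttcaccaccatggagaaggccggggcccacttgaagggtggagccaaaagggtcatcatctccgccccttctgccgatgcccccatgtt
Gm12070: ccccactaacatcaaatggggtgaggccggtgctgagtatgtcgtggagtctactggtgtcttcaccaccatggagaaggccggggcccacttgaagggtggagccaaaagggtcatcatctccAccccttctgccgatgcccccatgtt
Gm5069: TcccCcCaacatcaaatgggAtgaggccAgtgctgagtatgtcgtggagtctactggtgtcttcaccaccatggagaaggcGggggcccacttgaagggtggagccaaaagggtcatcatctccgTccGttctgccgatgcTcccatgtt
Akr1b3: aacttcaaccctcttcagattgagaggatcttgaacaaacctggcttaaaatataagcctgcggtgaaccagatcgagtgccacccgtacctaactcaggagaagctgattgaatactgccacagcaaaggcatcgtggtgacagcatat
Gm6644: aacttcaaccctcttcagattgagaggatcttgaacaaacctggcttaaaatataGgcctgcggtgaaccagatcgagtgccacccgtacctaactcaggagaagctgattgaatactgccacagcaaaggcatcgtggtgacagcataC
In these windows Gm12070 differs from Gapdh at 1 base, Gm5069 at 9, and Gm6644 from Akr1b3 at 2.

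Among the genes lower in IP, 5 fell by at least 1 on the log2 scale in EYFP animals, where 0.492% of all genes did, and 14 in hTyr animals, where 1.1% did. Of the 15 named for their fall, 7 are long noncoding RNAs by their RefSeq entry. Gm38585 (chr17:32113166-32131492) overlaps Notch3, a receptor gene that was itself lower in IP by -0.76 and -0.68. Its own level was 1.33, 1.75 and 2.08 log2 CPM (lowest, median, highest) in EYFP IP and 2.53, 2.83 and 3.17 in EYFP input. In hTyr IP it was 1.84, 2.27, 2.22, 1.01 and 1.93, and in hTyr input 3.14, 2.88, 2.84, 3.09 and 2.73, in the same order of animals as above. All IP libraries were below all input libraries. It fell by 1.11 (SE 0.17, adjusted p = 4.82e-05) in EYFP and by 1.08 (SE 0.23, adjusted p = 0.000812) in hTyr animals by limma. Gm19500 fell by 1.20 (SE 0.24) and 1.24 (SE 0.17). Gm5113 (chr7:30169875-30182324), which lies 100 bases from the zinc finger gene Zfp146, fell by 1.00 (SE 0.17) and 0.85 (SE 0.15). Zfp146 had a change of 0.13 that missed the threshold in EYFP animals and rose by 0.53 in hTyr animals. Gm10516 (chr1:192136898-192151025), which overlaps Rcor3, fell by 0.98 (SE 0.16) and 0.76 (SE 0.19). Gm26782 (chr14:50870296-50881054), which overlaps Tep1, fell by 0.95 (SE 0.22) and 0.78 (SE 0.22), while Tep1 had changes of 0.12 and 0.00 that missed the threshold. Gm39080 (chr7:119730804-119739490) fell by 1.03 (SE 0.26) and 1.18 (SE 0.27), and Gm32178 (chr7:80956392-80981490) by 0.76 (SE 0.21) and 1.17 (SE 0.30). Of the 30 long noncoding RNAs that overlap another listed gene, 22 fell in EYFP and 20 in hTyr animals. Of the 48 that do not, 33 and 34 fell.

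Known nuclear RNAs are given beside these falls for comparison. Where the Gm-numbered RNAs lie in the cell was not measured. Of 7 nuclear-retained noncoding RNAs, 6 fell in each treatment, with list medians of -0.90 and -1.26. Malat1 fell by 1.29 (SE 0.24) and 1.86 (SE 0.15), Meg3 by 0.93 (SE 0.18) and 1.35 (SE 0.21).

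Genes that RefSeq lists in other classes, or that have no entry and so no known class, fell as far. Gm22, since renamed Zfp469, a very large zinc finger gene at chr8:122043123-122272650, was at 0.32, 1.14 and 1.76 log2 CPM (lowest, median, highest) in EYFP IP. In EYFP input it was at 2.10, 2.41 and 2.81. In hTyr IP it was at 0.77, 1.51, 1.63, -1.39 and 1.33, and in hTyr input at 3.26, 3.0, 2.60, 2.55 and 2.57, in the same order of animals. IP and input did not overlap, and the low value, that of IP_509, rests on 4 reads. It fell by 1.29 (SE 0.21, adjusted p = 0.000103) in EYFP and 2.03 (SE 0.45, adjusted p = 0.0011) in hTyr animals by limma. Gm1043 (chr5:37153129-37236943) fell by 0.99 (SE 0.17) and 1.38 (SE 0.20), Gm21188 (chr13:120034604-120052204) by 1.22 (SE 0.22) and 1.07 (SE 0.29). Gm36722 (chr7:36626487-36698222), which overlaps the transcription factor gene Tshz3, fell by 0.90 (SE 0.15) and 1.19 (SE 0.16), and Tshz3 by 0.36 and 0.69. The pseudogene Gm7020 (chr11:104573542-104575674) fell by 0.92 (SE 0.14) and 0.62 (SE 0.20). With no RefSeq entry, Gm35040 fell by 0.94 (SE 0.17) and 1.36 (SE 0.19), Gm36673 by 0.75 (SE 0.15) and 1.20 (SE 0.13), and Gm30956 by 0.79 (SE 0.18) and 1.20 (SE 0.28).

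Levels of Dbh varied among the 11 IP libraries, from 6.61 to 8.31 log2 CPM, and a fit on that level asked which genes follow it from library to library. Under limma 2 Gm-numbered genes passed as rising with Dbh and 0 as falling, where 0.191% of the other 12595 genes rose and 0.0318% fell. They were Gm39813 (slope 1.36, SE 0.23, limma adjusted p = 0.0195) and Gm40600 (slope 1.25, SE 0.23, limma adjusted p = 0.0311), in log2 units per log2 unit of Dbh. Both genes were highest in IP_501, IP_504 and IP_502, where Dbh was at 8.31, 8.02 and 7.65. IP_512, with Dbh at 7.74, lay lower, at 3.17 for Gm39813 and 2.71 for Gm40600. Gm39813 lost the call when any 1 of IP_501, IP_502, IP_504, IP_508 and IP_511 was left out (adjusted p of 0.0525 to 0.67). Gm40600 lost it without any 1 of IP_501, IP_502, IP_504, IP_507, IP_508, IP_509 and IP_511 (0.0557 to 0.836). The slopes stayed at 1.19 or above and 0.93 or above in those fits.

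Pearson's r with Dbh was 0.84 for Gm39813 (permutation p = 0.00104, adjusted over all genes 0.207; Spearman's rho 0.69, permutation p = 0.023, adjusted 0.722). It was 0.82 for Gm40600 (permutation p = 0.00279, adjusted 0.301; rho 0.66, permutation p = 0.0311, adjusted 0.757). By this test 0 of the 270 passed after adjustment over 12595 genes, and 0 of all genes passed. An unadjusted permutation p under 0.05 was found for 29 of the 270, with no count over all genes to set beside it. Under limma an unadjusted p under 0.05 was reached by 33 of the 270 and by 1133 of all 12595 genes. Without the 2 libraries farthest from the Dbh median, IP_501 and IP_504, r fell to 0.62 and 0.50. These had the highest Dbh, and a narrower range of Dbh can lower r under a true linear relation too. The fall alone therefore does not show how much of the relation rests on those libraries. By rank of r Gm39813 and Gm40600 were at places 41 and 57 of 12595. An r over 0.7 was reached by 6 Gm-numbered genes (2.22%) against 2.0% of all genes, and an r under -0.7 by 6 (2.22%) against 1.56%. These shares lie near those of all genes, and the median r was -0.02 beside 0.01 for all genes.

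After the leading genes came Gm42102 (r = 0.77, 0.36 without those 2 libraries) and the pseudogenes Gm5424 (0.76, then 0.45), Gm11578 (0.75, then 0.75), Gm10698 (0.72, then 0.56) and Gm10705 (0.70, then 0.41). Gm40525, with no RefSeq entry, had an r of 0.69, then 0.32. Genes with a high r were not all higher in IP: Gm11578, a copy of Lix1 at chr1:60591420-60593903, was lower in IP by -0.67 (SE 0.13) in EYFP and -0.46 (SE 0.16) in hTyr animals. The lowest r values belonged to long noncoding RNAs Gm39283 (-0.75, then -0.48), Gm13446 (-0.75, then -0.73) and Gm40841 (-0.73, then -0.84), and to Gm266 (-0.72, then -0.33) and Gm20878 (-0.70, then -0.60). Gm40841 (chr13:28396062-28421499) was also lower in IP, by -0.63 (SE 0.16) and -0.51 (SE 0.17). Gm13446, which overlaps Dab2ip, was lower by -0.32 (SE 0.13) in hTyr animals, and its change of -0.27 (SE 0.14) in EYFP animals missed the threshold.

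**Figure D4:**
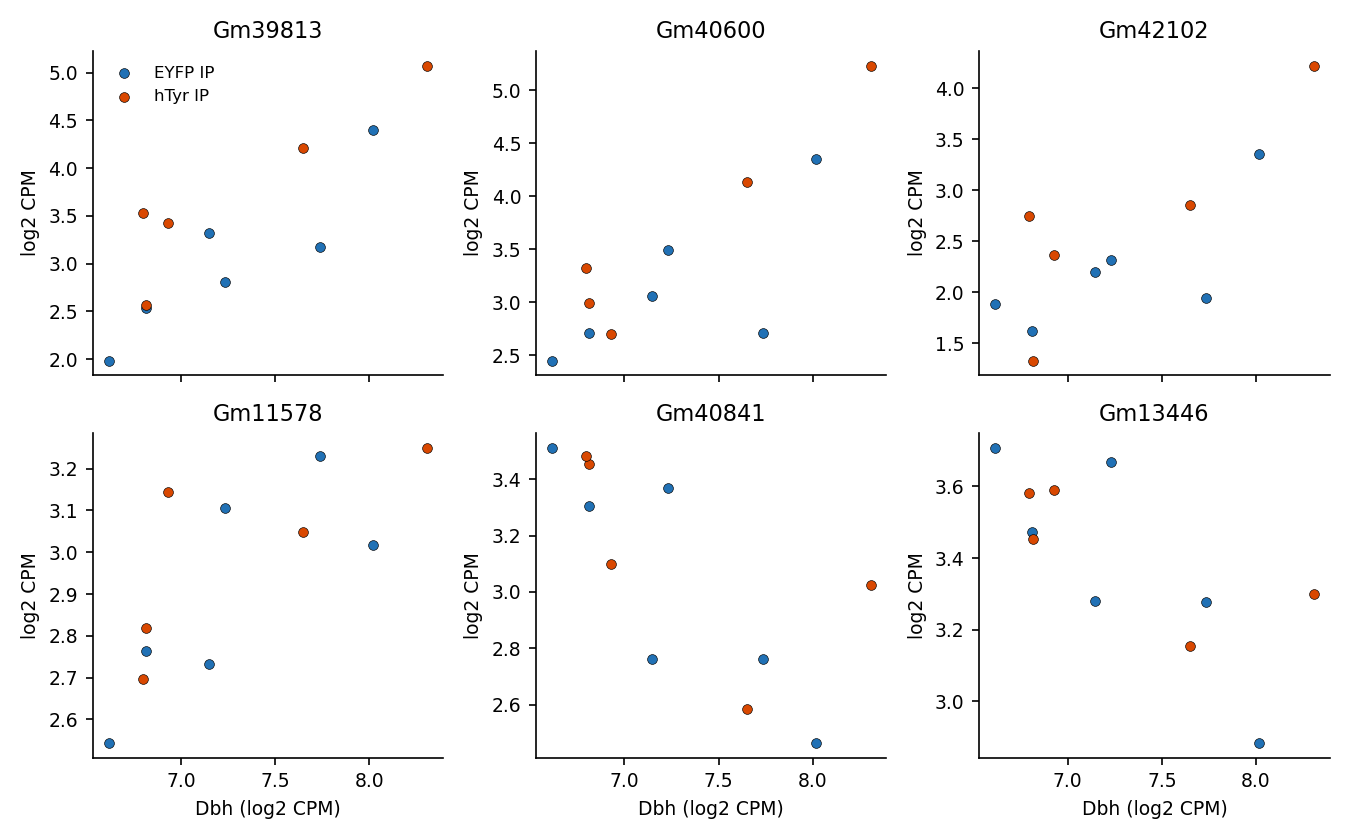
Level of 6 Gm-numbered genes (vertical axes, log2 CPM) against that of Dbh (horizontal axis, log2 CPM) in the 11 IP libraries, coloured by treatment, 1 point per animal. Gm39813, Gm40600 and Gm42102 are highest in the library with Dbh at 8.31, Gm11578 rises with Dbh over the whole range (r = 0.75), and Gm40841 and Gm13446 are lower where Dbh is higher.

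No Gm-numbered gene passed the test for a treatment response. In IP 0 rose and 0 fell in hTyr against EYFP, where 0.0556% of all genes rose and 0.0% fell. At an unadjusted p under 0.05 by limma there were 29 of the 270, against 780 of all 12596 genes (6.19%). With total reads as a covariate these counts were 16 and 689. In input 0 passed either way (0.0% of all genes rose, 0.00794% fell), with 9 at an unadjusted p under 0.05 against 3.03% of all genes. For the difference between both responses 0 passed (0.00794% higher, 0.0% lower over all genes), with 8 unadjusted against 3.31%. The median difference in IP was 0.01, beside -0.01 for all genes.

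The lowest unadjusted p in IP belonged to Gm9855 (now Tdg-ps2, chr10:42052558-42055453), a pseudogene of the DNA repair glycosylase gene Tdg. In hTyr IP it was at 4.14, 4.08, 3.94, 4.26 and 3.18 log2 CPM, and in hTyr input at 4.34, 3.84, 3.76, 4.22 and 2.97, in the animals numbered as IP_501, IP_502, IP_508, IP_509 and IP_510. In EYFP IP, IP_504 was at 3.99 and the other 5 between 2.29 and 3.0, and in EYFP input Pre_504 was at 3.76 and the others between 2.62 and 2.98. The treatments overlapped, because both libraries of 1 EYFP animal lay among the hTyr values and both of 1 hTyr animal (IP_510 and Pre_510) near the EYFP values. The difference was 1.00 in IP (SE 0.25, adjusted p = 0.486) and 0.82 in input (SE 0.23, adjusted p = 0.99), by limma. Without IP_504 it was 1.22 in IP, with a limma adjusted p of 0.0352. Without each other library in turn the adjusted p was 0.18 to 0.989. IP and input of an animal went together, with an r of 0.93 between their deviations from the group means. Tdg went the other way, with differences of -0.42 in IP and -0.48 in input that did not pass. Among input libraries Tdg was lowest in Pre_509 and Pre_501, at 4.01 and 4.06, where Gm9855 was highest.
A stretch of their transcripts (150 bases, GENCODE M21, Gm9855 at chr10:42054206-42054355, minus strand), chosen and marked as above, shows 5 differences.
Tdg: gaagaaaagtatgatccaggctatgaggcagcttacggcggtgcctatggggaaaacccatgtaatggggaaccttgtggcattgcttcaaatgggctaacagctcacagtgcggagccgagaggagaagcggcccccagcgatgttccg
Gm9855: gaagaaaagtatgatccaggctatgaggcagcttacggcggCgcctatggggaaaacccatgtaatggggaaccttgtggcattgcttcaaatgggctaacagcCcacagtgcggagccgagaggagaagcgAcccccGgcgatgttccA

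The other genes with the lowest unadjusted p values moved less or overlapped. Gm30807, a long noncoding RNA at chr7:126091952-126099796, was at 0.45, 1.89, 1.66, 1.79 and 1.17 log2 CPM in hTyr IP (same order of animals), below all EYFP IP libraries (2.13 to 2.81). Its difference of -0.99 (SE 0.27, limma adjusted p = 0.533) in IP did not pass, and that in input was -0.15 (SE 0.15). Its IP reads were few, 22 to 142 per library. Gm1818 (a copy of Tfb2m, listed as another type) was at 3.49 to 3.81 in hTyr IP and 2.90 to 3.43 in EYFP IP, a difference of 0.41 (SE 0.13, limma adjusted p = 0.656) with no overlap. Gm5093, a copy of the ribosomal protein gene Rpl11, was at 3.19 to 3.65 against 3.73 to 3.94, a difference of -0.36 (SE 0.11, limma adjusted p = 0.683) with no overlap. Gm9833 (0.48, SE 0.14) and Gm13889 (0.49, SE 0.14) each had an adjusted p of 0.593, and Gm42035 (-0.31, SE 0.11) one of 0.754, all with overlapping groups. In input the 3 lowest p values in each direction belonged, beside Gm9855, to Gm9776 (0.36) and Gm21685, renamed Entpd4b (0.19), and to Gm42035 (-0.22), Gm14325 (-0.23) and Gm17296, renamed Tarbp1 (-0.26). Their adjusted p was 0.99. For the difference between IP and input responses the 3 in each direction were Gm30807 (-0.84), Gm34220 (-0.42), Gm11744, renamed Prcd (-0.61), Gm1818 (0.37), Gm14325 (0.36) and Gm13889 (0.36), each with an adjusted p of 0.996. Gm39813 and Gm40600 had differences in IP of 0.73 (SE 0.41, limma adjusted p = 0.827) and 0.55 (SE 0.40, adjusted p = 0.864).

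**Figure D5:**
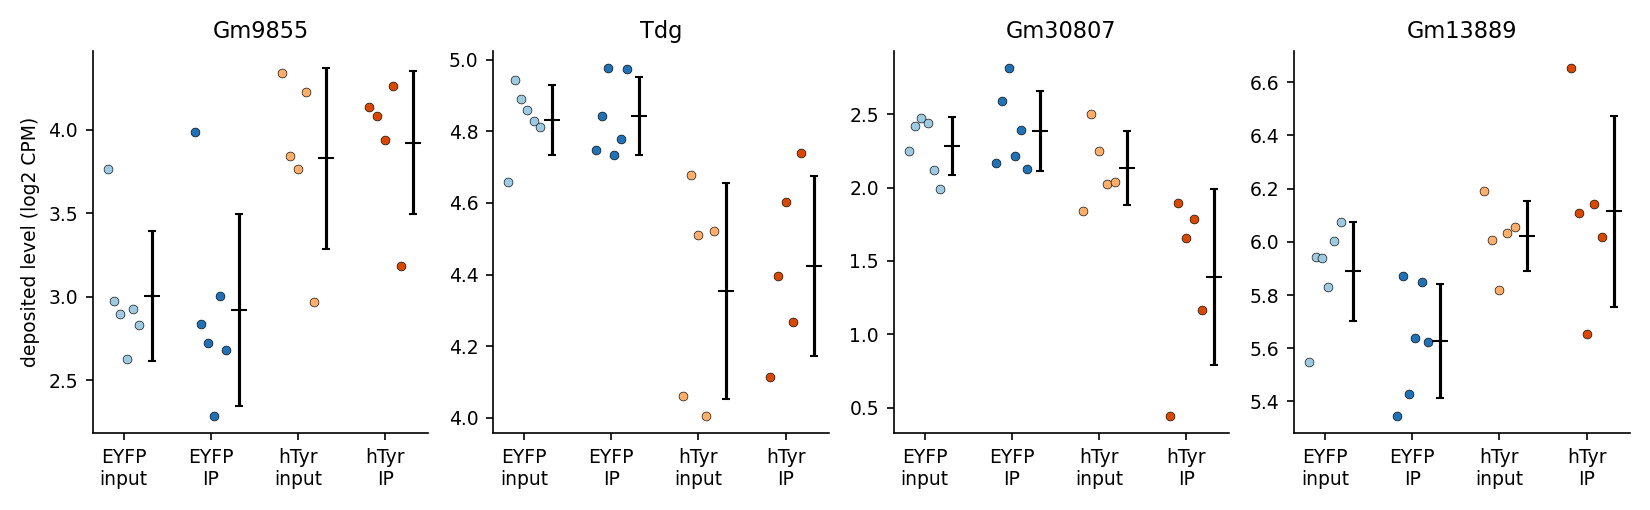
Deposited level (log2 CPM, vertical axis) of Gm9855, its parent gene Tdg, Gm30807 and Gm13889 in each library of the 4 groups, 1 point per animal, with the mean and SD beside each group. The high EYFP point of Gm9855 is 1 animal in both IP (3.99) and input (3.76), and the low hTyr point also 1 animal (3.18 and 2.97).

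Some Gm-numbered genes differed from animal to animal in the same way in IP and input. The correlation of an animal's IP and input deviations from the group means was over 0.8 for 12 of the 270 (4.44%), against 4.8% of all genes. That share lies near that of all genes, and the median was lower, 0.18 against 0.27 for all genes. This correlation was highest for Gm7120, renamed Tmem267 (r = 0.96), whose level ran from 3.41 in both IP_510 and Pre_510 to 5.12 in IP_505 and 5.53 in Pre_505. Gm9855 (0.93) and Gm36227 (0.87) were among the 12. So were 3 chemokine-like genes in a cluster of 9 on chromosome 4 (chr4:41903613-42720147): Gm21541, renamed Ccl21d, Gm13304 and Gm10591 (0.88, 0.89 and 0.81). Gm21541 and Gm13304 have 100% identity, and the 3 were at 1.63, 1.47 and 1.35 in IP_502 and at 3.48, 3.52 and 3.47 in IP_508. Reads of these 3 cannot be assigned with certainty to 1 of them.

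Some lie next to each other. The longest run on the genome, 14 predicted genes on chromosome 2 (chr2:175185165-177957386) among zinc finger genes such as Zfp970 and Zfp971, had changes in IP of -0.18 to 0.35 in EYFP animals, where 0 passed. In hTyr animals they were 0.03 to 0.58, and 6 rose and 0 fell, where 27.4% of all genes rose. The 2 responses were not tested against each other over the run. In the chromosome 4 cluster 0 rose and 2 fell in each treatment, with medians of -0.40 and -0.22, a share near that of all genes (28.1% and 27.0%). All 14 genes of the chromosome 2 run have a near copy, so their values are not independent.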

How the data were processed

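RNA was measured in 22 libraries, an IP and an input library from each of 11 mice. The authors deposited log2 counts per 1000000 reads for 12596 genes after filtering and normalization, per the title of the table in the labels. Per the submitters' processing notes STAR, featureCounts and mm10 were used, with versions not given in the sources used here. The lowest value, -3.21, stands for 0 reads, and all values came out as whole reads (100%, within 0.05 reads) with a prior averaging 2 reads. The recovered depth was 12654489 to 25100142 reads per library.

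Groups came from the treatment and library labels. The log2 values were fitted with limma 3.58.1 (R 4.3.3, eBayes with trend), with Benjamini-Hochberg adjustment over all genes at a threshold of 0.05, two-sided, in 6 comparisons. The main fits treated libraries as independent, and the pairing of IP and input entered only with the replicate block. The fits were also run on simulated reads, with independent libraries and the same fixed extra spread for every gene. Real genes differ in spread, so that run does not show how many true changes were missed here. Permutation p values of correlations (100000 resamples, SciPy 1.17.1, Python 3.11.15) were adjusted over all genes but Dbh, in place of the members as first planned. Gene classes, positions and promoters came from RefSeq (GRCm38.p6), and near copies from blastn 2.17.0 on GENCODE M21 transcripts. The numbers in the labels were taken to pair IP with input: deviations of same-numbered libraries from their group means had a mean r of 0.448 (0.279 to 0.626 over 11 pairs), against -0.04 for other numbers.

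The genes and lists described were chosen with earlier results of these data known. Named are, per IP against input comparison, up to 10 rises and 10 falls past the threshold with no overlap of groups. Also named are the 8 highest and 5 lowest r with Dbh, the 3 lowest p per direction in each treatment comparison, and Gm39813 and Gm40600. Gm12070, Gm5069, the genes of runs and those with alike IP and input libraries were picked after their values were seen. Alternatives tried were voom on recovered reads, quantile normalization, median centring, a pseudocount of 5 CPM, a filter on low values, covariates, the replicate block and leaving out each animal. Intervals on reads cover counting error only.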

Additional observations from a re-analysis of the deposited data

Results flagged for a closer look

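Within groups of 5 or 6 libraries, single values stood far from the others by Dixon's criterion for 10 of the 51 named Gm-numbered genes, in 12 of 204 groups tested. Chance alone marks about 1 in 20 groups. All values are log2 CPM.

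Among EYFP libraries, Gm9855 was at 3.76 in Pre_504, where the next highest was 2.98. Gm6158 was at 4.19 in IP_505, where the next lowest was 4.70. Gm4944 was at 1.55 in IP_505 (next lowest 2.74). Gm5113 was at 2.37 in IP_507 (next lowest 3.20), and Gm21685 at 7.25 in Pre_507 (next highest 7.0).

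Among hTyr libraries, the library pair of IP_501 and Pre_501 held 4 such values. Gm266 was at 1.26 in IP_501 (next lowest 2.14), Gm21685 at 7.46 in Pre_501 (next highest 7.16) and Gm38481 at 5.44 in Pre_501 (next lowest 5.92). Gm39813 was at -1.25 in Pre_501 (next highest -2.65), which rests on 8 reads. Gm22 was at -1.39 in IP_509 (next lowest 0.77), on 4 reads. Gm4944 was at 1.90 in Pre_509 (next highest 1.44), and Gm10705 at 4.94 in Pre_510 (next highest 4.75).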

How the results depend on the processing

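Of 198 alternative values of the counts of Gm-numbered genes, 182 stayed within 1.5 times the main count and 16 moved. Of 1018 for 71 results on single genes, 999 kept direction and side of the threshold, 12 lost the call, 7 gained it and 0 reversed. With only the upper 75% of genes by mean level, which leaves 100 Gm-numbered genes, IP against input gave 16 higher and 27 lower in EYFP and 18 higher and 19 lower in hTyr animals, and 0 rose with Dbh. Over all 9447 genes of that fit 2963 were higher and 2784 lower in EYFP, and 2859 and 2704 in hTyr animals. The mean of 7 noradrenergic genes in place of Dbh gave 6 rising and 1 falling, adding Gm42102 (adjusted p = 0.00551), Gm5424 (0.0367) and Gm10705 (0.0491) by limma. Calls rose among all 12595 genes too, from 24 rising and 4 falling with Dbh to 84 and 33. Leaving out each animal gave 25 to 38 higher and 91 to 116 lower in EYFP, and 29 to 46 higher and 85 to 97 lower in hTyr animals. Over all 12596 genes these ranges were 3137 to 3646 and 2954 to 3685 in EYFP, and 3085 to 3282 and 2810 to 3146 in hTyr animals. Leaving out each animal gave 0 to 1 higher for hTyr against EYFP in IP, the 1 without IP_504 being Gm9855, and 0 to 4 rising with Dbh. With the replicate block, IP against input gave 46 higher and 119 lower in EYFP and 41 higher and 112 lower in hTyr animals, and 0 for the difference between responses. Over all 12596 genes the block gave 3964 higher and 4169 lower in EYFP and 3661 and 3779 in hTyr animals. The block changed no call of a named gene. Voom on recovered reads also called 0 Gm-numbered genes for any treatment response. Where not stated above, the cause of a change was not tested. Depth limits the lowest genes: Gm39813 had at most 8 reads in an input library.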
